A study of Mus musculus with 4 samples.

Results

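The genes described here encode 10 hypothalamic neuropeptides: galanin (*Gal*), thyrotropin-releasing hormone (*Trh*), neurotensin (*Nts*), corticotropin-releasing hormone (*Crh*), proenkephalin (*Penk*), prodynorphin (*Pdyn*), pro-opiomelanocortin (*Pomc*), oxytocin (*Oxt*), vasopressin (*Avp*) and the CART prepropeptide (*Cartpt*). They were taken by name, through the Ensembl gene identifiers that GENCODE mouse release M21 gives for these symbols, and all 10 were found among the 55573 identifiers of every library. Cells positive for tdTomato were sorted (FACS) from mouse embryos at embryonic day (E) 16 and their RNA was sequenced, in 2 libraries of *Dnmt1* wild-type (WT) cells and 2 libraries of *Dnmt1* knockout (KO) cells. The comparison asked whether the RNA levels of these genes differed between the genotypes. *Gal*, *Nts* and *Pdyn* were the most abundant of them in WT, with mean WT levels of 2.00, 2.00 and 2.04 times those in KO, *Cartpt* was near 0 in KO and *Penk* was higher in both KO libraries, but none of these differences passed the test across all genes. DNMT1 is the methyltransferase that maintains DNA methylation through cell division.

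Both genotypes carried the *Hmx3-Cre* driver and the tdTomato reporter (Hmx3-Cre/tdTomato/Dnmt1loxp_WT and Hmx3-Cre/tdTomato/Dnmt1loxp_KO). In the KO, Cre removed exons 4 and 5 of *Dnmt1*, which lie between the loxP sites of the Dnmt1 loxP2 strain, and the deletion was limited to cells that express or once expressed *Hmx3*. The labels describe the cells as interneurons from the basal telencephalon, whereas the paper places them in the preoptic area (POA). Cells came from pools of 12 WT and 6 KO embryos. The labels call the 2 libraries of a genotype biological replicates and the paper calls them technical duplicates of a pool, so SDs and p-values here measure the spread between libraries, which may be technical. Totals ran from 8075102 to 9995968 counts per library, at which 3 counts correspond to 0.294 to 0.372 CPM (counts after scaling all libraries to equal size). Mitochondrial genes took 9.55% of the counts in WT 1 and 1.95% to 2.73% in the other 3 libraries.

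*Dnmt1* itself had 3103 and 4557 counts in the WT libraries against 2383 and 2552 in the KO libraries. The log2 fold change of KO against WT was -0.56 (standard error [SE] 0.14, edgeR adjusted p = 0.0511), and its counts include exons outside the deletion. It passed in 8 of 11 alternative settings, with adjusted p from 0.000118 to 0.151, and, of the 4 edgeR fits that left a library out, in those without WT 1 (1.96e-07) and without WT 2 (0.00283), against 0.386 without KO 1 and 0.521 without KO 2. The 10 GABAergic interneuron markers, among them *Gad1* and *Gad2*, had summed levels of 1343 to 1482 CPM in WT and 1156 to 1262 CPM in KO. All 12 astrocyte markers were higher in KO, with summed levels of 267 to 284 CPM in WT and 4013 to 4219 CPM in KO, and *Gfap* had 0 counts in both WT libraries. In KO, 10 of 11 oligodendrocyte markers and 7 of 8 mural cell markers were also higher past the threshold (7.9% of all genes tested passed), and 3 of 10 pan-neuronal markers were lower past the threshold, with 9 of the 10 lower in both KO libraries than in both WT libraries and 8 at an unadjusted p under 0.05 (summed level 5770 to 6386 CPM in WT and 4267 to 4335 CPM in KO). The part of these marker differences in the neuropeptide values below was not tested.

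Neuropeptides are made as longer precursors, which are packed into dense-core vesicles, cut by proprotein convertases and released to act mostly on G protein-coupled receptors. The hypothalamus and the adjoining POA are known for a wide range of such peptides, which act as transmitters, as releasing factors for the pituitary or as hormones. Many neurons that use GABA also make neuropeptides.

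The upstream sequence of 3 members is shown because *Gal*, *Nts* and *Pdyn*, with *Cartpt*, were the members with an unadjusted p under 0.05 in the comparison of genotypes, and because CG dinucleotides, the usual target of DNA methylation, are unevenly spread over them. Sequences come from the RefSeq promoter windows of build GRCm38.p6, which run from 250 bases before to 50 bases after a start site, and are written 5′ to 3′ on the minus strand, on which these genes lie. Capitals mark CG dinucleotides. For *Gal* (chr19:3414545-3414794) and the upstream start of *Pdyn* (chr2:129699939-129700188) all 250 bases before the start are given, and for *Nts* (chr10:102490487-102490668) the 182 of them that lie outside its GENCODE M21 exons.
Gal: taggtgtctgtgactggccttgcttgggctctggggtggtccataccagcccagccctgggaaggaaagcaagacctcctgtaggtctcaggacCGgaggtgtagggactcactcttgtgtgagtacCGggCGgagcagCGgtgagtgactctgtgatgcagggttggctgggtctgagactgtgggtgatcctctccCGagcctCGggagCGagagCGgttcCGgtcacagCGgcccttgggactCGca
Nts: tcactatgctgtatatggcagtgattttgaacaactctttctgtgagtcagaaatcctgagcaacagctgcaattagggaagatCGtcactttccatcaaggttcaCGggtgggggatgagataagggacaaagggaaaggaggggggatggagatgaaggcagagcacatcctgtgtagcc
Pdyn: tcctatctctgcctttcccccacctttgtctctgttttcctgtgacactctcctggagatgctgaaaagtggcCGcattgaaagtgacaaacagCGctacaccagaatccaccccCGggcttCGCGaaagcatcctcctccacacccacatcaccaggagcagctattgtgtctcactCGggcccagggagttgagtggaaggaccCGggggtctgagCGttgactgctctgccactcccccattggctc

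The printed stretch held 11 CG dinucleotides for *Gal*, 2 for *Nts* and 8 for *Pdyn*. Over the whole window of 300 bases, *Gal* had 16, more than 67.0% of the 32841 RefSeq promoter windows of that length, which had a median of 7. *Nts* had 3 CG dinucleotides, more than 23.3% of windows, and *Pdyn* had 11 at its upstream start and 5 at a second start, more than 58.6% and 38.0% of windows. Windows were also found for *Trh* with 28 CG dinucleotides, *Cartpt* with 26, *Pomc* with 18, *Avp* with 8 and *Oxt* with 6, so that 8 of 10 members were covered. Entries were missing for *Crh* and *Penk*. DNA methylation was not analysed here.

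The letters TGACGTCA, the full cAMP response element, were searched on both strands and stood in 1 member, *Cartpt*, starting 112 bases before its RefSeq start. They occurred in 1.79% of all windows. The stretch of 30 bases around them (chr13:99900777-99900806, minus strand of GRCm38.p6, motif in capitals) lies inside the first exon of a longer GENCODE M21 transcript of the gene.
Cartpt: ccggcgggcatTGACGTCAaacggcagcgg

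The shorter letters TGACG, which overlap the full element, stood on either strand in 4 of the 8 members with a window (*Gal*, *Trh*, *Nts* and *Cartpt*) and in 20.8% of all windows. On the sense strand, TATAAA started 25 bases before the start of *Pomc* (8.32% of windows hold it), and TATATA started 45 and 43 bases before that of *Nts* (5.67% of windows). The GENCODE M21 start of *Nts* lies further upstream than its RefSeq start, so that both TATATA matches fall inside the gene as annotated there. These matches describe letters only.

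Per length, as TPM (a level that sums to the same total in every library) over the union of each gene's exons, *Gal* had the highest mean level of the 10 genes in both genotypes. In WT it stood at 27.4 ± 4.64 TPM (SD, n = 2), followed by *Nts* at 21.1 ± 4.51 TPM and *Pdyn* at 11.1 ± 5.12 TPM. *Trh* at 5.97 ± 6.39 TPM, *Pomc* at 5.18 ± 4.10 TPM, *Cartpt* at 4.11 ± 0.0985 TPM, *Penk* at 2.78 ± 2.20 TPM and *Avp* at 2.25 ± 2.36 TPM came next, and *Crh* and *Oxt* were lowest at 0.632 ± 0.894 TPM and 0.621 ± 0.879 TPM. Between neighbours in this order, the range of the 2 libraries of *Nts* lay apart from that of *Pdyn*, and the ranges of every other pair overlapped. These ranges leave out that genes were measured in the same library. Within each WT library *Gal* exceeded *Nts* (24.1 against 17.9 TPM in WT 1, 30.7 against 24.3 TPM in WT 2). *Nts* likewise exceeded *Pdyn*, *Pdyn* exceeded *Trh* and *Penk* exceeded *Avp*.

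In KO the order was *Gal* (15.1 ± 0.406 TPM), *Nts* (11.6 ± 3.46 TPM), *Penk* (7.18 ± 0.944 TPM) and *Pdyn* (5.87 ± 2.73 TPM), then *Pomc*, *Trh*, *Crh*, *Oxt* and *Cartpt* from 2.79 down to 0.583 TPM, and *Avp* with 0 counts. *Penk* was the seventh gene of the order in WT and the third in KO, and *Cartpt* was the sixth in WT and the ninth in KO. Neighbours whose ranges over the KO libraries did not overlap were *Gal* and *Nts*, *Nts* and *Penk*, and *Cartpt* and *Avp*. Within each KO library *Penk* also exceeded *Pdyn*, though by little in KO 1 (7.85 against 7.81 TPM), and *Pdyn* exceeded *Pomc*. The level of *Gal* exceeded that of 82.1% of the genes with a count in WT and of 70.8% in KO.

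**Figure D1:**
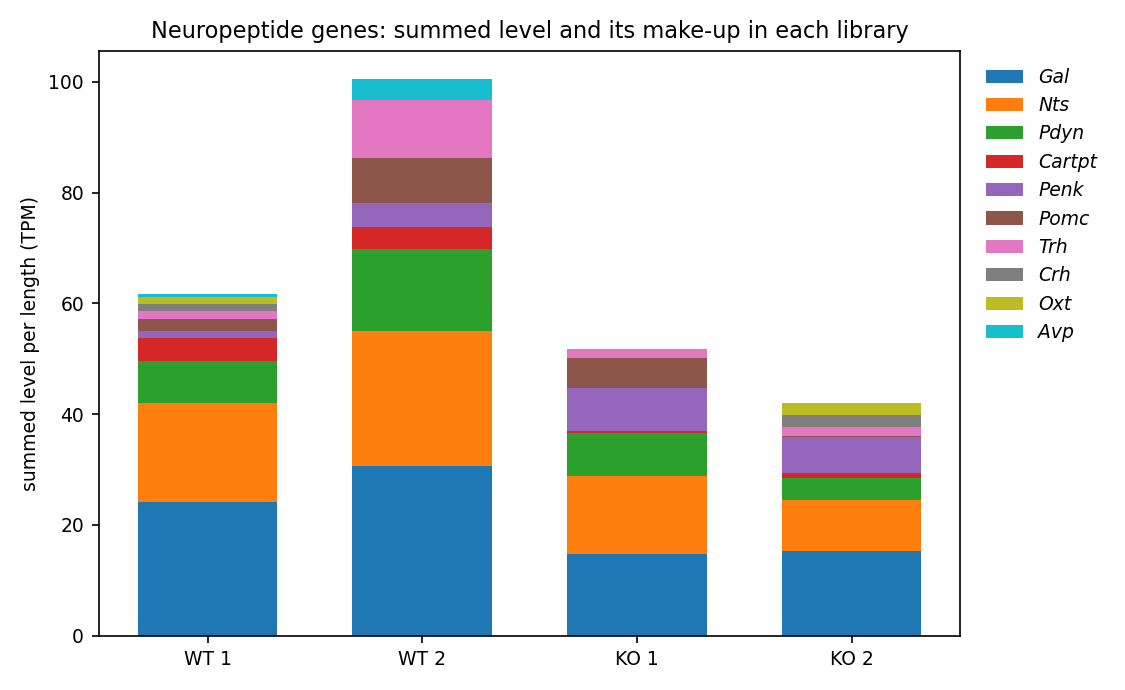
Stacked level per length (TPM, from 0) of the 10 neuropeptide genes in each of the 4 libraries, 1 colour per gene. The column of WT 2 reaches 101 TPM, against 61.8 TPM in WT 1 and 51.8 and 41.9 TPM in KO, and *Gal*, *Nts* and *Pdyn* make up most of every column.

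Together the 10 genes took 234 counts in WT 1, 424 in WT 2, 191 in KO 1 and 145 in KO 2. Relative to the library totals, without TMM scaling, this was 26.1 and 42.4 CPM in WT and 23.7 and 16.5 CPM in KO. The KO libraries were the lower 2, but the gap between WT 1 and KO 1 was smaller than the gap between the WT libraries. *Gal*, *Nts* and *Pdyn* together made up 80.8% and 71.0% of these counts in WT and 69.6% and 65.5% in KO.

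Of the 10 genes, 6 had enough counts for the comparison across all genes, and 0 of these 6 passed the test (edgeR's quasi-likelihood test, Benjamini-Hochberg adjusted p under 0.05), against 7.9% of the 16832 genes tested. DESeq2 gave 0 of 7, which included *Trh*, and limma-voom 0 of 6. Without adjustment, 4 members had p under 0.05 (*Cartpt*, *Gal*, *Nts* and *Pdyn*, all with lower levels in KO), as did 3813 of all genes tested, and the smallest adjusted p was 0.0613, for *Cartpt*. Calls of a lower level in KO were rare among all genes, at 0.57% of those tested. The log2 fold change was negative for 5 of the 6 and positive for *Penk*, with a median of -1.001 against -0.03 over all genes tested. In 4 of the 6 the KO libraries were both the lower ones in CPM, an order that 25.2% of all tested genes showed. In TPM the genotypes overlapped for *Pdyn*, at 7.51 TPM in WT 1 and 7.81 TPM in KO 1. In sorted cells measured in bulk, fewer cells that make a peptide and less RNA per cell cannot be told apart.

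**Figure D2:**
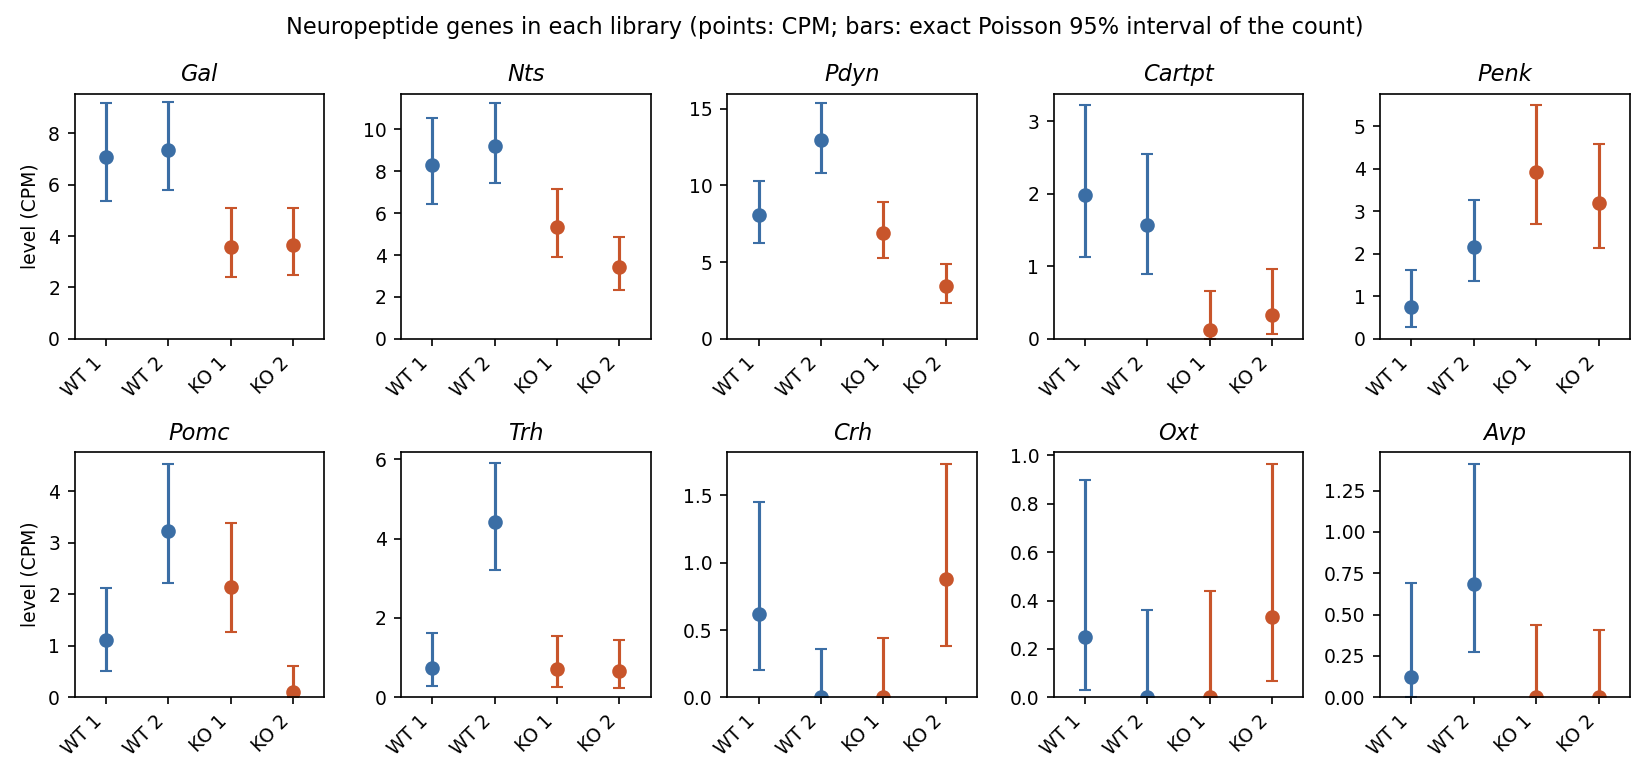
Level of each neuropeptide gene in each library in CPM (vertical axes start at 0 and differ between panels), with points for the libraries (WT blue, KO orange) and bars for the exact Poisson 95% interval of the count. Both KO points lie below both WT points for *Gal*, *Nts*, *Pdyn*, *Cartpt*, *Trh* and *Avp*, and above them for *Penk*, while the genotypes overlap for *Pomc*, *Crh* and *Oxt*. *Trh* had 6 counts in WT 1 and in each KO library, so that its order rests on the scaling. In TPM its level in WT 1 was 1.45, against 1.68 and 1.59 in KO. *Avp* had 1 count in WT 1 and 0 in KO.

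*Gal*, on chromosome 19 of GRCm38 from 3409915 to 3414544, encodes the precursor of galanin, a peptide of sleep-promoting POA neurons. It had 57 counts in WT 1, 75 in WT 2, 30 in KO 1 and 33 in KO 2, which is 7.08 and 7.35 CPM in WT and 3.57 and 3.63 CPM in KO. The groups did not overlap, and the libraries of a genotype differed 1.04-fold in WT and 1.02-fold in KO. The mean level in WT was 2.00 times that in KO (log2 fold change -0.9998, SE 0.33, 95% interval -1.76 to -0.24, edgeR adjusted p = 0.118). With any 1 library left out the value stayed between -1.03 and -0.97. With the length and GC trend of each library removed it was -1.20 (edgeR adjusted p = 0.0263, and 0.0215 with a replicate block added). These were the 2 of 11 alternative settings in which *Gal* passed. In every fit with a library left out edgeR's prior degrees of freedom were far above the 6.05 of the full fit (infinite without WT 1 or WT 2), so that p-values took little or no account of the spread of the single gene.

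*Nts* (chromosome 10, 102481756 to 102490486) encodes neurotensin, which acts on body temperature and dopamine neurons. It had 67 and 94 counts in the WT libraries against 45 and 31 in the KO libraries, or 8.32 and 9.21 CPM against 5.35 and 3.41 CPM. Here too the KO libraries were both the lower ones. The log2 fold change was -1.003 (SE 0.34, 95% interval -1.79 to -0.21, edgeR adjusted p = 0.130). The value without each library in turn ran from -1.35 to -0.71, and *Nts* passed in 0 of 11 alternative settings.

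The 3 opioid precursor genes had fold changes of both signs, and none of the 3 passed the test. *Pdyn* (chromosome 2, 129686565 to 129699844), the source of the dynorphins that act on the kappa receptor, had 65 counts in WT 1, 132 in WT 2, 58 in KO 1 and 31 in KO 2. At 8.07 and 12.9 CPM in WT and 6.90 and 3.41 CPM in KO, WT 1 and KO 1 lay close together while WT 2 and KO 2 stood on either side. The log2 fold change was -1.04 (SE 0.41, 95% interval -1.98 to -0.09, edgeR adjusted p = 0.184). This value depended on single libraries: it was -1.34 (adjusted p = 0.000367) without WT 1, -0.66 (0.199) without WT 2, -1.61 (0.0490) without KO 1 and -0.61 (0.790) without KO 2. Its adjusted p was 0.0400 without the filter and 0.0223 with the trend removed and a replicate block.

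*Penk* (chromosome 4, 4133531 to 4138819), the source of the enkephalins, was the member with a positive fold change among those tested. It had 6 counts in WT 1, 22 in WT 2, 33 in KO 1 and 29 in KO 2, or 0.745 and 2.16 CPM in WT and 3.92 and 3.19 CPM in KO. Both KO libraries were above both WT libraries, which themselves differed 2.89-fold. The log2 fold change was 1.25 (SE 0.58, 95% interval -0.08 to 2.59, edgeR adjusted p = 0.244). It was 2.22 (adjusted p = 0.0160) without WT 2 and 0.71 (0.385) without WT 1. The antisense gene *A830012C17Rik* overlaps 14.3% of the exonic bases of *Penk*, and at 2, 0, 0 and 1 counts it was near 0 in every library.

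*Pomc* (chromosome 12, 3954951 to 3960642), the precursor of melanocortins and beta-endorphin, had 9 counts in WT 1, 33 in WT 2, 18 in KO 1 and 1 in KO 2. At 1.12 and 3.23 CPM in WT against 2.14 and 0.110 CPM in KO, the groups overlapped, and KO 2 alone was near 0. The log2 fold change was -0.99 (SE 0.99, 95% interval -3.26 to 1.29, edgeR adjusted p = 0.596). Without KO 2 it was -0.04 (adjusted p = 0.994), and without KO 1 it was -4.15 (0.123). *Pomc* is also made in the pituitary, and of 10 other anterior pituitary markers 9 had 0 counts in every library and the tenth, *Tshb*, had 22, 4, 9 and 7 counts in WT 1, WT 2, KO 1 and KO 2.

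*Cartpt* (chromosome 13, 99898489 to 99901091) encodes the precursor of the CART peptides, which reduce feeding. It had 16 counts in each WT library, 1 count in KO 1 and 3 counts in KO 2, or 1.99 and 1.57 CPM in WT and 0.119 and 0.330 CPM in KO. The exact Poisson 95% interval of the level ended at 0.662 CPM in KO 1 and 0.966 CPM in KO 2 and began at 1.14 CPM in WT 1 and 0.896 CPM in WT 2, so that the intervals of KO 2 and WT 2 overlapped. The mean level in WT was 7.91 times that in KO, and the log2 fold change of -2.88 (SE 0.76, 95% interval -4.64 to -1.12, edgeR adjusted p = 0.0613) was the most negative of the 6 tested members. *Cartpt* passed the filter on low counts only through its WT level, and a gene that low in KO could be tested only where its WT level was higher. Its adjusted p was 0.0422 when libraries were scaled by their totals alone, 0.0459 without the filter, 0.0230 with the length and GC trend removed, 0.0241 with that and a replicate block, and 0.207 in DESeq2. It did not pass in any of the 4 fits that left a library out, where the value ran from -3.74 without KO 2 (edgeR adjusted p = 0.354) to -2.36 without KO 1 (0.547), with adjusted p of 0.101 without WT 1 and 0.0584 without WT 2. The fit without the filter also took no account of the spread of the single gene.

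The other 4 members had too few counts to pass the filter. *Trh* (chromosome 6, 92242061 to 92244650), the releasing hormone of the thyroid axis, had 6 counts in WT 1, 45 in WT 2, 6 in KO 1 and 6 in KO 2, which is 0.745, 4.41, 0.713 and 0.661 CPM. WT 2 alone was high, at 5.92 times the level of WT 1, and the other 3 libraries had the same count. Without the filter its log2 fold change was -1.91 with an adjusted p of 0.0642 in edgeR, and DESeq2 gave -1.94 with 0.384. With a library left out it was -2.67 (edgeR adjusted p = 0.00138) without WT 1, -1.96 (0.437) without KO 1 and -1.86 (0.588) without KO 2.

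*Avp* (chromosome 2, 130580620 to 130582554), the antidiuretic hormone, had 1 count in WT 1, 7 in WT 2 and 0 in both KO libraries, where 3 counts would be 0.357 and 0.330 CPM. *Oxt* (chromosome 2, 130576173 to 130577054), its neighbour at a distance of 3565 bases, had 2 counts in WT 1, 0 in WT 2, 0 in KO 1 and 3 in KO 2. No difference in *Oxt* was detectable at this depth, and for *Avp* the lower limits of the WT counts were 0.0253 and 2.81 against an upper limit of 3.69 counts in each KO library (exact Poisson 95% intervals). *Crh* (chromosome 3, 19693401 to 19695396), the releasing hormone of the stress axis, had 5 counts in WT 1, 0 in WT 2, 0 in KO 1 and 8 in KO 2, so that each genotype held 1 library with and 1 without counts.

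The members differed in how far their libraries agreed. Between the WT libraries, the ratio of WT 2 to WT 1 in CPM was 0.789 for *Cartpt*, 1.04 for *Gal*, 1.11 for *Nts*, 1.60 for *Pdyn*, 2.89 for *Penk* and *Pomc*, 5.53 for *Avp* and 5.92 for *Trh*. Between the KO libraries, the ratio of KO 2 to KO 1 was 1.02 for *Gal*, 0.638 for *Nts*, 0.495 for *Pdyn*, 0.814 for *Penk*, 0.0515 for *Pomc*, 0.926 for *Trh* and 2.78 for *Cartpt*. Intervals and limits on counts cover counting error only.

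The receptors and binding proteins of these peptides were a list of 23 genes. Of these 12 were tested and 1 passed, *Ntsr2*, which was higher in KO, beside 7.9% of all tested genes, and the median log2 fold change was -0.35. *Ntsr2*, a neurotensin receptor known from astrocytes in the brain, had 7 counts in each WT library, 1913 in KO 1 and 2048 in KO 2, a rise of 8.18 on the log2 scale (SE 0.23, edgeR adjusted p = 1.79e-06). The astrocyte marker *Aqp4*, a water channel, had 0 and 4 counts in the WT libraries against 591 and 567 in the KO libraries, and the share of such markers in the rise of *Ntsr2* was not tested. The other neurotensin receptors did not pass the test. *Ntsr1* had 41 and 71 counts in the WT libraries against 13 and 38 in the KO libraries (log2 fold change -1.06, edgeR adjusted p = 0.249). With a library left out its value ran from -1.95 without KO 2 (adjusted p = 0.0949) to -0.52 without KO 1 (0.837), and without WT 1 it passed (-1.27, 0.0172), as it did with the trend removed and a replicate block (0.0489). *Sort1*, which encodes the sorting receptor sortilin, was the most abundant gene of the list by mean CPM over the 4 libraries, though not in KO 1, with 1547 and 1941 counts in the WT libraries against 1902 and 2114 in the KO libraries (0.26, 0.279).

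Among the galanin receptors, *Galr1* had 61 and 82 counts in the WT libraries against 48 and 42 in the KO libraries (log2 fold change -0.60, edgeR adjusted p = 0.299), *Galr2* had 14 to 29 counts per library and *Galr3* had 0. The opioid receptors *Oprk1*, *Oprd1* and *Oprm1*, for dynorphins, enkephalins and endorphins, had log2 fold changes of -0.46, -0.18 and -0.19, and *Oprk1* was the most abundant of them with 337 and 341 counts in the WT libraries against 292 and 181 in the KO libraries. The value of *Oprk1* ran from -0.90 without KO 1 to -0.11 without KO 2, and it passed in 1 of the 4 edgeR fits that left a library out, the one without WT 2 (-0.63, adjusted p 0.00619). The vasopressin receptor *Avpr1a* had 80 and 126 counts in the WT libraries against 45 and 40 in the KO libraries, and its log2 fold change was -1.19 (SE 0.30) with an edgeR adjusted p of 0.0527, which was 0.000475 without WT 1, 0.0170 without WT 2 and 0.346 without KO 2. It passed in 5 of the 11 other alternatives, with adjusted p from 0.00461 to 0.0930 over them. Of the melanocortin receptors, *Mc1r* (20 and 29 counts in WT, 6 and 9 in KO) and *Mc4r* (21 and 30, 7 and 17) had log2 fold changes of -1.63 and -1.02 with edgeR adjusted p of 0.131 and 0.330, and the value of *Mc4r* ran from -1.72 without KO 2 to -0.55 without KO 1. Like *Cartpt*, *Mc1r* passed the filter on low counts only through its WT level. *Crhr1*, the main receptor of corticotropin-releasing hormone, had 27 and 44 counts in the WT libraries against 40 and 48 in the KO libraries (0.38, 0.579), while *Crh* itself had 0 to 8 counts per library. *Crhr2* (11, 11, 5 and 8 counts in WT 1, WT 2, KO 1 and KO 2), *Mc5r* (7, 10, 4 and 10) and *Trhr* (10, 4, 1 and 3) did not pass the filter.

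**Figure D3:**
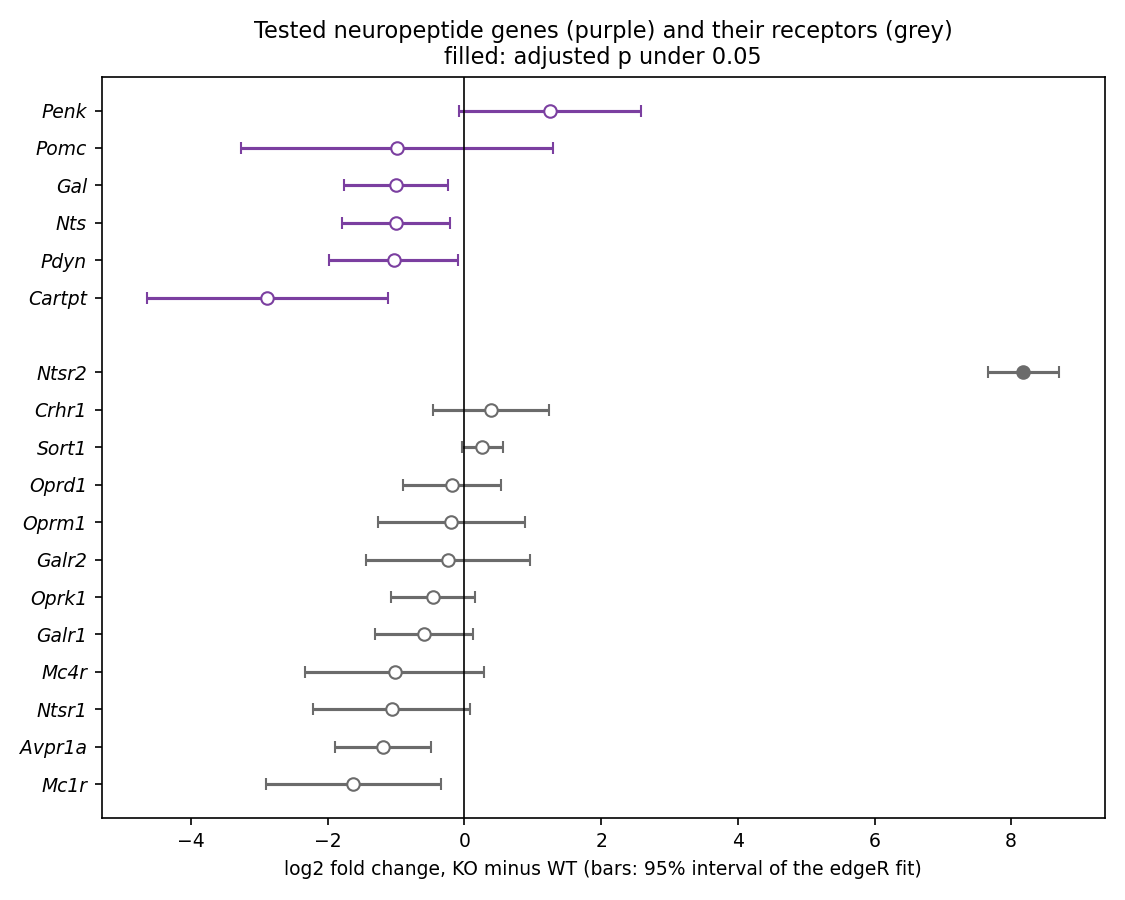
Log2 fold change (KO minus WT, horizontal axis) of the 6 tested neuropeptide genes (purple) and the 12 tested receptor genes (grey), with bars for the 95% interval of the edgeR fit and filled points for an adjusted p under 0.05. *Ntsr2* at 8.18 is the one filled point, and the intervals of *Gal*, *Nts*, *Pdyn* and *Cartpt* lie below 0 before adjustment for the number of genes, as do those of the receptors *Avpr1a* and *Mc1r*.

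The enzymes that cut, trim and amidate the precursors, or degrade the peptides, were a list of 27 genes. Of the 24 tested 1 passed, which was higher in KO, beside 7.9% of all tested genes, and the median log2 fold change was -0.14. *Pcsk6*, a convertase of the secretory pathway, had 38 and 98 counts in the WT libraries against 231 and 247 in the KO libraries (log2 fold change 1.91, SE 0.32, edgeR adjusted p = 0.00809). With a library left out its value ran from 1.5 to 2.52. The most abundant genes of the list were *Cpe*, which trims the cut ends (3488 and 4196 counts in WT, 4044 and 3972 in KO), *Pam*, which amidates them (1322 and 1601, 1154 and 1160), and *Pcsk1n*, an inhibitor of PCSK1 (860 and 1537, 844 and 922), with log2 fold changes of 0.12, -0.28 and -0.35. None of these 3 passed with all libraries, and *Pcsk1n* passed in 2 of 11 alternative settings (smallest adjusted p 0.00722) and in edgeR's fit without WT 1 (-0.58, 0.000757), against -0.09 without WT 2. *Pcsk1* and *Pcsk2*, the convertases of dense-core vesicles, were chosen for mention with their values in view: *Pcsk1* had 23 and 51 counts in the WT libraries against 16 and 22 in the KO libraries, and *Pcsk2* 449 and 566 in WT and 311 and 396 in KO, with edgeR adjusted p of 0.327 and 0.131.

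All 19 genes for dense-core vesicles were tested, and 1 passed, which was lower in KO, beside 7.9% of all tested genes. It was *Syt4*, a synaptotagmin of these vesicles, with 1259 and 1113 counts in the WT libraries against 655 and 551 in the KO libraries (log2 fold change -0.94, SE 0.21, edgeR adjusted p = 0.0333), and without KO 2 it no longer passed (-0.76, 0.185). *Scg2*, a granin of the vesicle core and the most abundant gene of this list, had 3469 and 5416 counts in the WT libraries against 2950 and 2995 in the KO libraries (-0.50, 0.0983). *Scg2* passed in 5 of 11 alternative settings, with adjusted p from 0.00330 to 0.249, and in edgeR's fits without WT 1 (-0.65, 2.02e-07) and without WT 2 (-0.35, 0.0272), but not without KO 1 (0.437) or KO 2 (0.702). *Dmxl2* and *Cadps* followed with -0.33 and -0.26, and both passed in 1 fit, without WT 2 (edgeR adjusted p 0.00134 and 0.0396). The fold change was negative for 17 of the 19 genes, with a median of -0.33, against 8813 of the 16832 genes tested and a median of -0.03 over them, while the summed level of the 10 pan-neuronal markers was also lower in KO. Whether the vesicle genes moved beyond such neuronal genes was not tested.

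Of 20 transcription factors of neuroendocrine neurons, 19 were tested, 4 were lower and 1 was higher in KO past the threshold. Over all tested genes 7.9% passed in either direction and 0.57% as lower in KO. The list was chosen with earlier results of these data known, so these counts are no independent evidence of a shift in such factors. *Tbx3*, a T-box factor of arcuate neurons that make *Pomc*, had 140 and 135 counts in the WT libraries against 15 and 25 in the KO libraries (log2 fold change -2.74, SE 0.35, edgeR adjusted p = 0.00199). *Fezf1*, a factor of the ventromedial hypothalamus, had 92 and 112 against 21 and 20 counts (-2.25, SE 0.32, 0.00369). *Sim1*, required for neurons that make *Oxt*, *Avp*, *Trh* and *Crh*, had 47 and 60 against 13 and 10 counts (-2.14, SE 0.43, 0.0204; 0.119 without KO 2). *Isl1*, a LIM factor of arcuate neurons, had 653 and 675 against 333 and 364 counts (-0.88, SE 0.16, 0.0126; 0.0959 without KO 1 and 0.0763 without KO 2). *Nr3c1*, the glucocorticoid receptor, was the one that was higher, with 163 and 174 counts in the WT libraries against 372 and 338 in the KO libraries (1.13, SE 0.19, 0.00863). The 3 most abundant factors, *Dlx1*, *Arnt2* and *Creb1*, did not pass the test, with log2 fold changes of -0.21, -0.03 and -0.66. *Creb1* passed in 5 of 11 alternative settings, with adjusted p from 0.00278 to 0.170, and in edgeR's fit without WT 2 (-1.004, adjusted p 5.145e-11), while its value was -0.25 without WT 1 (0.233).

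Beyond the 10 members, 41 further neuropeptide genes were listed, of which 11 had no count in any library. Of the 12 tested, 0 passed edgeR's test, with 2 at an unadjusted p under 0.05 and a smallest adjusted p of 0.175, and DESeq2 and limma-voom also gave 0. Over all tested genes 7.9% passed. The median log2 fold change was -0.53 and 9 of 12 values were negative, against -0.03 and 8813 of 16832 over all genes tested. Some of the 12 passed the filter on low counts only through the genotype in which they were higher, so the filter bore on their direction. Somatostatin (*Sst*) was the most abundant, with 287 and 524 counts in WT and 281 in each KO library (log2 fold change -0.44, edgeR adjusted p = 0.252), so that WT 2 alone stood apart. *Sst* passed with the length and GC trend removed (-0.64, edgeR adjusted p = 0.0163), with that and a replicate block (-0.63, 0.00462), and without WT 1 (-0.68, 0.000984), while its value was -0.16 without WT 2 (0.635). *Nucb2*, which gives nesfatin, and *Pnoc*, which gives nociceptin, followed with -0.18 and -0.60 (0.637 and 0.216), and *Pnoc* passed in 1 edgeR fit, without WT 1 (-0.83, adjusted p 0.00655). In each of the 4 libraries *Sst* had more counts than the 10 members together.

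**Figure D4:**
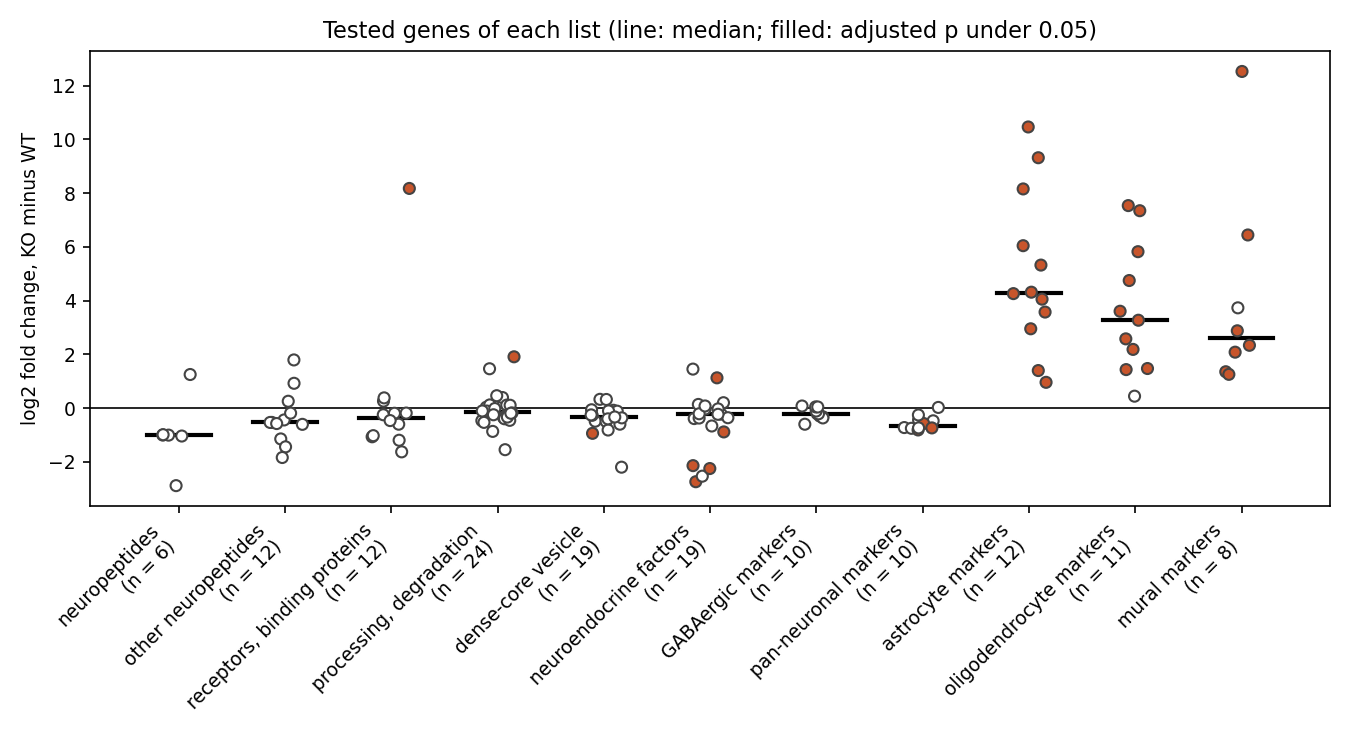
Log2 fold change (KO minus WT, vertical axis) of every tested gene in the neuropeptide list, the 5 lists of related genes and 5 lists of cell type markers, with 1 point per gene, a line at each list's median and filled points for an edgeR adjusted p under 0.05. None of the 6 neuropeptide points is filled, whereas all 12 astrocyte markers are filled and lie above 0.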

How the data were processed

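RNA of FACS-enriched cells was sequenced in 4 libraries, 2 per genotype. For each library the authors deposited a list of Ensembl genes with their raw counts of reads, not normalized. The submitters' processing notes name CASAVA 1.8.2, STAR 2.5.2a and featureCounts 1.5.0-p1 with the mouse builds mm10 and GRCm38. The annotation and the strand setting of the counting are not given in the sources used here, and reads of overlapping antisense genes could be added to a gene if strand was ignored. Groups and replicate numbers came from the sample titles.

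Of 55573 gene identifiers, 55480 matched GENCODE M21. The counts were filtered with edgeR's expression filter (minimum count 10), which kept 16832 genes, and scaled with TMM factors. Genotypes were compared by the quasi-likelihood test of edgeR 4.0.16 (R 4.3.3, limma 3.58.1), with no other term in the model. Adjustment followed Benjamini and Hochberg over all tested genes, and the threshold was 0.05. SEs were derived from the test statistic. CPM used the TMM-scaled library sizes and TPM the union of a gene's exons. Intervals of counts are exact Poisson 95% intervals. The procedures were tested on simulated data.

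The alternatives were DESeq2 1.42.0, limma-voom, other scalings, removal of mitochondrial genes, other filters, a block for the replicate number, removal of length and GC trends from each library, the last 2 combined, and each library left out in turn, where the lone library of a genotype is assumed to vary like the others. The members, gene lists and marker lists were chosen with earlier results of these data known. Named were all members, *Dnmt1*, and from each list of related genes those past the threshold (at most 5 in each direction) and the 3 most abundant, and every receptor with a count of at least 10 in some library. Marker genes, *Pcsk1*, *Pcsk2* and *Pmch* were named after their values were seen. Promoter windows came from RefSeq.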

Additional observations from a re-analysis of the deposited data

How the results depend on the processing

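With the main settings, 1329 of all genes passed (1233 higher and 96 lower in KO), as did 0 members, 0 other neuropeptide genes, 1 receptor gene, 1 processing gene and 1 dense-core vesicle gene. Without the filter on low counts, 2363 genes passed (1790 higher, 573 lower), with 2 members, 2 receptor, 2 processing and 3 vesicle genes. With at least 10 counts in every library, 883 genes and 0 receptor genes passed, since *Ntsr2* was then not tested. DESeq2 called 1403 genes (1151 higher, 252 lower) and 2 vesicle genes, its size factors gave 2 receptor genes, and scaling by library size alone gave 1 member. With the replicate block, 2244 genes passed (1625 higher, 619 lower), with 0 members, 2 receptor, 2 processing and 5 vesicle genes. The deviations of same-numbered libraries from their group means correlated at 0.137 across genes, and with 2 pairs the libraries are taken to share only a number. With the length and GC trend removed, 2741 genes passed (1925 higher, 816 lower), with 2 members, 1 other neuropeptide, 2 receptor, 5 processing and 7 vesicle genes. With the replicate block and the trend correction together the counts were 3170 (2115 higher, 1055 lower), 3 members, 1 other neuropeptide, 3 receptor, 6 processing and 7 vesicle genes. With each library left out in turn, the counts ran from 951 to 4209 for all genes, 0 to 4 for members, 0 to 4 for other neuropeptides, 1 to 3 for receptors, 1 to 6 for processing and 0 to 7 for vesicle genes. The highest counts came without WT 1 or WT 2. edgeR's prior degrees of freedom were infinite in those fits and in the one without the filter, where p-values took no account of the spread of the single gene, and 670 and 435 without KO 1 and KO 2, against 6.05 with all libraries. The cause of the shifts was not tested. The log2 fold changes of the 6 tested members kept their direction under every alternative in which they were fitted. Of the 38 tested genes followed through the alternatives, direction turned for 4, all near 0. These were *Arnt2* (0.081 by library size, 0.0080 by upper quartile, 0.0031 with at least 10 counts), and, with a library left out, *Arnt2* (-0.17 to 0.11), *Galr2* (-0.55 to 0.15), *Oprd1* (-0.40 to 0.018) and *Oprm1* (-0.46 to 0.15). Members had 0 to 132 counts per library, and 4 of the 10 did not pass the filter of the main comparison. Without the filter, edgeR's adjusted p was 0.0642 for *Trh*, 0.444 for *Avp*, 0.896 for *Crh* and 0.946 for *Oxt*.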

Other observations

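Melanin-concentrating hormone (*Pmch*), a peptide of the lateral hypothalamus that is not among the 10 genes, had 27 counts in WT 1, 0 in WT 2, 5 in KO 1 and 0 in KO 2, so that its counts came from the libraries numbered 1. The gene *Parpbp* on the opposite strand overlaps 58.1% of the exonic bases of *Pmch*. Since the strand setting of the counting is not given, the source of these counts is not settled. Of the 10 genes, *Gal*, *Nts*, *Pdyn*, *Trh*, *Avp*, *Pomc* and *Penk* had their higher WT count in WT 2. That library was also the larger one, with 9995968 counts against 8951532 in WT 1. In CPM *Gal* and *Nts* differed only 1.04-fold and 1.11-fold between the WT libraries.

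Transthyretin (*Ttr*), a marker of the choroid plexus, had 329 and 564 counts in the WT libraries against 8 and 10 in the KO libraries. It was the 1 marker of 4 tested for this tissue past the threshold, and 3 of the 4 had negative fold changes. The summed level of the 7 choroid plexus markers was 54.6 and 70.7 CPM in WT and 8.56 and 9.36 CPM in KO. Most of this sum in WT was *Ttr* itself, at 40.8 and 55.3 CPM in WT against 0.951 and 1.10 CPM in KO. Of the other cell type markers, 2 of 5 tested glutamatergic genes and 1 of 5 tested erythroid genes were lower in KO past the threshold and 1 of 5 oligodendrocyte precursor genes and 1 of 8 tested microglial genes were higher (edgeR), beside 7.9% of all tested genes past the threshold and 0.57% as lower in KO. The summed levels of 7 endothelial markers were 18.4, 17.5, 17.6 and 20.4 CPM and those of 6 ependymal and tanycyte markers 11.8, 21.4, 12.0 and 15.7 CPM in WT 1, WT 2, KO 1 and KO 2.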
